A study of Homo sapiens with 2 samples.

Results

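Among the cells that passed the limits on detected genes and mitochondrial share in both libraries of Nalm-6, a small group had few transcripts counted. Nalm-6 is a line of leukemic B-cell precursors from a human acute lymphoblastic leukemia. These low-UMI cells were chosen by measured values: at least 1000 genes detected, at most 10% of UMIs (unique molecular identifiers, each standing for 1 captured transcript) from genes whose symbol starts with MT-, and fewer than 8700 UMIs in all. Of the 4706 barcodes in the files, 308 met the rule. They were 224 of 2267 kept cells in the ETV6-RUNX1 library (9.88%, exact 95% interval 8.68 to 11.2) and 84 of 1870 in the LUC control library (4.49%, 3.60 to 5.53). The comparison cells, called deeper cells here, passed the same gene and mitochondrial limits with 8700 UMIs or more and numbered 2043 and 1786.

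Both cultures were Nalm-6 cells modified with a Tet-On construct, a gene switched on by doxycycline, and both received 500 ng/ml doxycycline for 24 h. One expressed the ETV6-RUNX1 fusion, a transcription factor fusion of childhood B-cell precursor leukemia, and the other luciferase (LUC control). The labels do not say whether a culture was a clone or a pool. Dead cells were removed with beads before droplet capture, so the group had passed that step too. Each construct has 1 library, so nothing here is checked against replicates and no statistical test is given: genes are called by size alone, at 1.5-fold or more.

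The number of transcripts in a cell generally scales with its size and growth, and proliferating cells grow through the cycle from G1 to mitosis. Long noncoding RNAs such as MALAT1 stay in the nucleus, whereas mRNAs for ribosomal proteins, tubulins or metabolic enzymes are mostly cytoplasmic. A low UMI total can come from less RNA in the cell or from poorer capture in its droplet, and the 2 cannot be told apart from these counts. For that reason composition was compared after each cell had been thinned to 2000 UMIs drawn at random, and values below are shares or CPM (UMIs of a gene scaled to a total of 1000000) of thinned UMIs unless said otherwise.

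The low-UMI cells had a median of 6804.5 UMIs (2545 to 8679) and 1791.5 genes in the ETV6-RUNX1 library, and 6022 UMIs (1948 to 8549) and 1721 genes in the control. Deeper cells had medians of 19963 UMIs and 3343 genes, and of 22939.5 UMIs and 3662 genes. One control cell under 2000 UMIs could not be thinned, leaving 83. At equal depth the number of genes was much the same, with medians of 785 in low-UMI and 783 in deeper cells of the ETV6-RUNX1 library and of 810 and 806 in the control. That likeness is partly set by the rule, which asked for at least 1000 genes. Barcodes that failed only the gene limit had at most 4124 and 2669 UMIs, so the limit shaped the low-UMI class. The control library was deeper throughout, with a median of 22535.5 UMIs per kept cell against 19219. When the limit was scaled to the same fraction of each library's median (8131 and 9535 UMIs), the shares of low-UMI cells came to 8.29% and 5.67%.

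The mitochondrial share of UMIs, which the rule capped but did not otherwise use, had nearly the same median in both classes and a wider spread in the low-UMI cells. Medians were 4.57% in low-UMI and 4.51% in deeper cells of the ETV6-RUNX1 library, with SDs over cells of 1.95 and 1.05 percentage points. In the control they were 4.24% and 4.36%, with SDs of 2.58 and 0.988. At the lower end, 15 of 224 and 18 of 84 low-UMI cells had at most 2% mitochondrial UMIs. At the upper end, 49 and 25 had more than 6%.

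**Figure D1:**
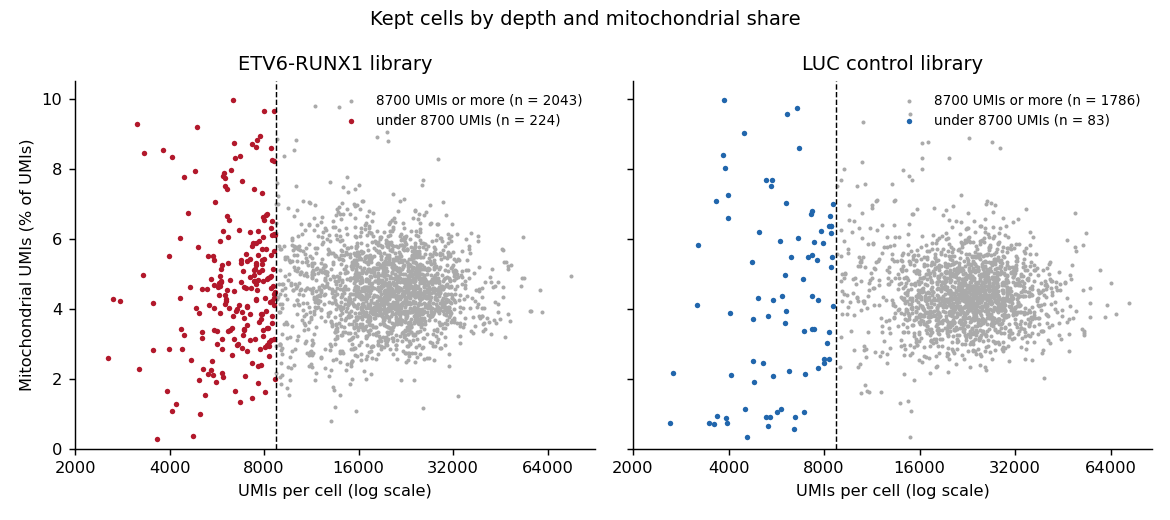
Each point is a kept cell that could be thinned, placed by its UMIs (log scale) and its percentage of mitochondrial UMIs, with low-UMI cells in colour left of the dashed limit of 8700 UMIs and deeper cells in grey. Low-UMI cells spread over the whole range up to 10%, and a band of control low-UMI cells lies below 2%.

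Most barcodes under 8700 UMIs were not in the group. Of 457 such barcodes with ETV6-RUNX1, 193 failed both the gene and the mitochondrial limit, 23 only the mitochondrial and 17 only the gene limit. In the control, 410 barcodes lay under 8700 UMIs, of which 257 failed both, 28 only the mitochondrial and 41 only the gene limit. The 2 libraries had 16 barcode sequences in common, and 1 low-UMI cell in each library carried one of these. The cells next to the limit are given as a description. The 42 ETV6-RUNX1 cells of 8000 to 8700 UMIs had MALAT1 at a mean of 1.26% of UMIs and tubulins at 0.269%, and the 46 cells of 8700 to 9400 UMIs had 1.23% and 0.210%. Ribosomal proteins took 43.2% inside and 46.1% outside, and genes of S phase 0.258% and 0.186%. The 12 control cells just inside had MALAT1 at 0.975% and tubulins at 0.200%, and the 18 just outside had 1.11% and 0.200%. IGLL1, a pre-B-cell receptor gene, was at 0.208% inside and 0.114% outside in the control, and at 0.101% and 0.111% with ETV6-RUNX1.

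The group carried the markers of its cell line. Of 12 listed markers of B-cell precursors, 11 matched a symbol in the files and 10 were measured (a mean of at least 100 CPM over the 2 classes in the 2 libraries), and together they made up 0.453% of UMIs in low-UMI against 0.414% in deeper cells with ETV6-RUNX1 and 0.603% against 0.521% in the control. Markers of other cell types were nearly absent. Of 448000 thinned UMIs in ETV6-RUNX1 low-UMI cells and 166000 in control ones, the T and NK cell list held 4 and 0, the myeloid list 11 and 4, the list of stem and progenitor cells 7 and 1, the list of mature B and plasma cells 8 and 1, and the list of erythroid cells and megakaryocytes 0 and 0. A count of 0 allows a share of up to 0.00067% and 0.00181% in these cells, a limit for counting error only. CD79A, the signalling chain of the B-cell receptor, was present at 96.0 and 169 CPM. The epithelial and fibroblast list held 49 and 27 UMIs, of which 48 and 27 were PDGFRA, a receptor tyrosine kinase gene; PDGFRA stood at 107 CPM in low-UMI and 74.4 in deeper cells with ETV6-RUNX1 and at 163 and 71.1 in the control.

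Relative to deeper cells, low-UMI cells of both libraries had higher shares of MALAT1, of the glycosyltransferase gene B4GALT1 and of the B-lineage transcription factor gene EBF1, and lower shares of tubulin, mitotic, proteasome and glycolysis genes. Ribosomal protein genes, the parts of the translation machinery, differed little as a group. Mitochondrially encoded genes differed little too, but the rule capped their share in both classes. With ETV6-RUNX1, 18 of 1063 measured genes reached 1.5-fold higher in the low-UMI cells (1.69%) and 23 reached 1.5-fold lower (2.16%), and in each case the interval of the ratio excluded no difference. In the control 45 were higher (4.23%) and 56 lower (5.27%), with intervals clear of 0 for 39 and 40. These are exact 95% intervals for a ratio of Poisson counts, which cover counting error only and leave out the spread between cells. The other genes lay close together: 849 genes with ETV6-RUNX1 and 753 in the control were within 0.32 of 0 on the log2 scale, and the medians over all measured genes were -0.05 and -0.06. Since 60.5% and 59.1% of all measured genes lay below 0, counts of list members below 0 are to be read against those shares. Without thinning, with all UMIs summed, 12 genes were higher and 13 lower with ETV6-RUNX1, and 26 higher and 21 lower in the control.

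Calls overlapped in part between the libraries. The 10 genes higher in both made up 55.6% of the ETV6-RUNX1 and 22.2% of the control calls, and the 10 lower in both made up 43.5% and 17.9%. Of the 18 genes higher with ETV6-RUNX1, 16 were also above 0 in the control, and of the 23 lower, 21 were below 0. In the other direction, 40 of the 45 genes higher in the control and 44 of the 56 lower had the same sign with ETV6-RUNX1. The control values rest on 166000 UMIs and are the less precise. The floor of 100 CPM also bears on the calls, as it averages both classes. Of the genes higher in both, B4GALT1, CAPZA1, WTAP and EBF1 were under 100 CPM in deeper cells of both libraries. They passed only through low-UMI cells. Of the genes lower in both, TK1, MCM7 and UBE2T were under it in low-UMI cells of both, and passed only through deeper cells. Calls of these genes are thus partly set by the floor.

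**Figure D2:**
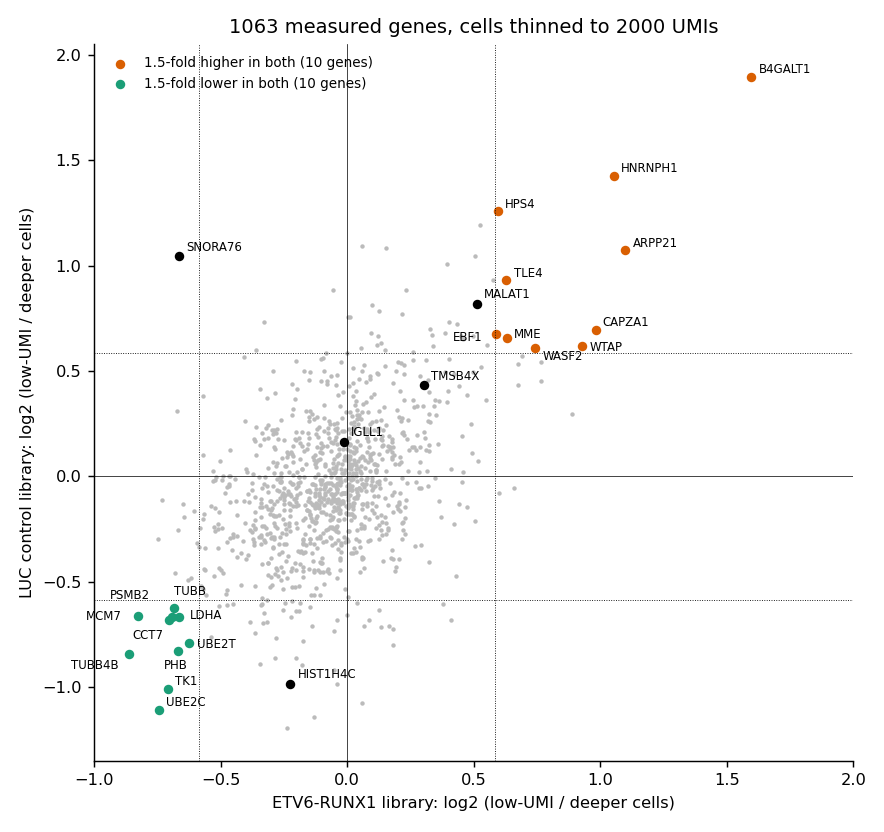
Each point is 1 of 1063 measured genes, with its log2 ratio of low-UMI over deeper cells in the ETV6-RUNX1 library on the horizontal and in the LUC control library on the vertical axis; dotted lines mark 1.5-fold. B4GALT1, HNRNPH1 and ARPP21 lie farthest into the upper right corner, and SNORA76 is the gene past 1.5-fold in opposite directions.

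B4GALT1, a Golgi enzyme that adds galactose to glycoproteins, had the highest ratio in both libraries. It was at 281 CPM in low-UMI and 93.0 CPM in deeper cells with ETV6-RUNX1, a log2 ratio of 1.60 (1.29 to 1.89), and at 319 and 85.7 CPM in the control, a log2 ratio of 1.90 (1.45 to 2.32). Counted per cell without thinning, B4GALT1 did not follow the total. The mean was 1.81 UMIs in a low-UMI and 1.70 in a deeper cell with ETV6-RUNX1, and 1.94 and 1.95 in the control, whereas the mean total per cell was 3.15-fold and 3.97-fold lower. ARPP21, which codes for a cAMP-regulated RNA-binding phosphoprotein, was at 337 against 157 CPM (1.10, 0.83 to 1.36) and at 217 against 103 CPM (1.07, 0.54 to 1.57). HNRNPH1, a splicing regulator, was at 348 against 168 CPM (1.05, 0.79 to 1.31) and at 434 against 161 CPM (1.43, 1.05 to 1.78). All 3 were higher in the low-UMI cells of both libraries, and B4GALT1 and ARPP21 were at least 1.5-fold higher in both under each of the 14 alternatives that recompute gene ratios. HNRNPH1 missed that size with ETV6-RUNX1 in 1 of them. Deeper cells of 8700 to 12000 UMIs also had more of these genes than deeper cells as a whole. There B4GALT1 was at 193 and 247 CPM, ARPP21 at 232 and 160 CPM, and HNRNPH1 at 284 and 299 CPM (ETV6-RUNX1 and control). Most of the spliceosome and hnRNP list went the other way, with 26 and 25 of 37 measured members below 0. As shares these are 70.3% and 67.6%, against 60.5% and 59.1% of all measured genes. In that list SNRPD3 was at -0.62 (-0.98 to -0.27) and -0.48 (-1.02 to 0.01), and SNRPF at -0.44 (-0.62 to -0.25) and -0.38 (-0.67 to -0.10).

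The other 7 genes higher in both libraries had smaller ratios. EBF1, a transcription factor that specifies the B lineage, was at 138 against 92.0 CPM with ETV6-RUNX1 and at 145 against 90.4 CPM in the control. TLE4, a corepressor, was at 172 against 111 CPM and at 205 against 108 CPM. MME, which codes for the leukemia surface antigen CD10, was at 196 against 127 CPM and at 211 against 134 CPM, but among cells with at most 5% mitochondrial UMIs its control log2 ratio turned to -0.16. HPS4, a factor of lysosome-related organelles, had log2 ratios of 0.59 (0.28 to 0.90) and 1.26 (0.82 to 1.67). CAPZA1 and WASF2, regulators of actin filaments, and WTAP, a subunit of the RNA methyltransferase complex, had log2 ratios of 0.98, 0.74 and 0.93 with ETV6-RUNX1. In the control these were 0.70 (-0.02 to 1.34), 0.61 (-0.08 to 1.24) and 0.62 (-0.13 to 1.29), intervals that include no difference.

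Many of the genes higher in low-UMI cells had a long span. Some of them, B4GALT1, CAPZA1, WTAP and EBF1 among these, passed the floor of 100 CPM only through low-UMI cells, as said above. Gene span, the distance from start to end of the gene in GENCODE release 29, was known for 1059 of the 1063 measured genes (99.6%) and had a median of 12.6 kb. The 10 genes higher in both libraries had a median span of 74.6 kb, from 20.6 kb for HNRNPH1 to 404 kb for EBF1, and the 10 lower in both a median of 10.6 kb. The 265 measured genes of the longest span (30.0 kb or more) held 13 of the 18 genes higher with ETV6-RUNX1 and 29 of the 45 higher in the control, and the 265 genes of the shortest span 1 and 5 of them. The median log2 ratio of these 265 genes was nevertheless 0.03 and -0.01, so long genes as a class were close to 0. Across the 1059 genes, which share their libraries and are not independent, Spearman's rho of ratio with span was 0.15 and 0.06.

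MALAT1, an abundant RNA retained in nuclear speckles, made up more of the UMIs of low-UMI cells. Its mean share was 1.38% in low-UMI and 0.965% in deeper cells with ETV6-RUNX1, a log2 ratio of 0.51 (0.47 to 0.55), and 1.59% and 0.899% in the control, a log2 ratio of 0.82 (0.76 to 0.88). Single cells overlapped widely. The middle 50% of low-UMI cells lay between 0.650% and 1.90% with ETV6-RUNX1 and between 0.600% and 1.93% in the control, and that of deeper cells between 0.600% and 1.25% and between 0.550% and 1.20%. Still, 42.0% and 53.01% of low-UMI cells were above the upper quartile of deeper cells. NEAT1, the scaffold RNA of paraspeckles, was at 143 against 89.6 CPM with ETV6-RUNX1 (0.67, 0.27 to 1.06) and at 102 against 75.9 CPM in the control (0.43, -0.37 to 1.14). Per cell and unthinned, MALAT1 fell short of the total's difference: 90.0 against 193 UMIs with ETV6-RUNX1, 2.14-fold, and 85.9 against 208 in the control, 2.42-fold.

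Summed shares were also higher for B-lineage transcription factor genes. Of 34 listed, 7 were measured. Of these, 7 had ratios above 0 with ETV6-RUNX1 and 6 in the control, with median log2 ratios of 0.39 and 0.62. Low-UMI cells count towards the floor of 100 CPM. EBF1 passed it only through them, and PAX5 was under it in deeper control cells. The counts above 0 and the medians thus lean upward. One was called higher with ETV6-RUNX1 (EBF1) and 4 in the control (EBF1, PAX5, TCF4 and SOX4). Of all measured genes, 1.69% and 4.23% were called higher. Summed, the list took 0.225% of UMIs against 0.175% in deeper cells, and 0.251% against 0.188%. TCF4, an E protein, was at 286 against 195 CPM and at 313 against 203 CPM, with log2 ratios of 0.55 (0.27 to 0.83) and 0.62 (0.19 to 1.03). PAX5, the factor that maintains B-cell identity, was at 134 against 101 CPM and at 145 against 87.1 CPM, with log2 ratios of 0.40 (-0.01 to 0.80) and 0.73 (0.07 to 1.33).

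Transcripts of the pre-B-cell receptor differed little or in opposite directions. Summed, its list had a log2 ratio of -0.01 (-0.09 to 0.06) in the ETV6-RUNX1 library, against 0.12 (0.02 to 0.22) in the control. VPREB1 and IGLL1, which together form the surrogate light chain of the pre-B-cell receptor, had log2 ratios of -0.09 (-0.27 to 0.08) and -0.01 (-0.15 to 0.12) with ETV6-RUNX1 and of -0.06 (-0.30 to 0.17) and 0.16 (0.00 to 0.32) in the control. CD79B was slightly higher in both, at 0.20 (0.01 to 0.38) and 0.31 (0.02 to 0.60). CD79A was at -0.53 (-1.01 to -0.08) in the ETV6-RUNX1 library, against -0.02 (-0.62 to 0.53) in the control. The V(D)J recombination list was lower when summed, at -0.08 (-0.15 to -0.02) and -0.26 (-0.38 to -0.15), with 3 and 4 of 6 measured members below 0. Among the members HMGB1, an abundant DNA-bending protein that also assists the recombinase, was at -0.18 (-0.27 to -0.09) and -0.35 (-0.51 to -0.20). HMGB1 held 1057 of the list's 1994 low-UMI UMIs with ETV6-RUNX1 and 347 of 652 in the control. DNTT, the template-independent polymerase of V(D)J joining, went the other way at 0.36 (0.15 to 0.56) and 0.15 (-0.24 to 0.52). No measured member of the pre-B-cell receptor, V(D)J or MHC class II lists reached 1.5-fold in either library; of the MHC class I list, PSME2 did so with ETV6-RUNX1. HLA-DRA and CD74, of the class II antigen presentation pathway, had log2 ratios of -0.01 and 0.05 with ETV6-RUNX1 and of 0.09 and 0.01 in the control.

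Tubulin genes had the lowest summed ratio. The list took 0.214% of UMIs in low-UMI and 0.304% in deeper cells with ETV6-RUNX1, and 0.220% and 0.337% in the control, log2 ratios of -0.51 (-0.60 to -0.41) and -0.61 (-0.77 to -0.46). Of 4 measured members, 2 were called lower with ETV6-RUNX1 and 3 in the control, against 2.16% and 5.27% of all measured genes. TUBB was at 585 against 940 CPM and at 608 against 939 CPM. TUBB4B, a beta-tubulin, had log2 ratios of -0.86 (-1.27 to -0.47) and -0.85 (-1.50 to -0.26), and TUBA1B, an alpha-tubulin, of -0.45 (-0.58 to -0.32) and -0.60 (-0.82 to -0.40). Some tubulin genes are near-identical in part of their sequence, and the sources used here do not say how reads were divided among such genes.

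Cell-cycle genes were shifted in the same direction. Of 14 measured genes of the list for G2 and mitosis, 12 were below 0 with ETV6-RUNX1 and 14 in the control. As shares these are 85.7% and 100%, against 60.5% and 59.1% of all measured genes. Of the 14 genes, 2 and 4 were called lower and none higher, where 2.16% and 5.27% of all measured genes were called lower. TUBB4B, already counted among the tubulins, is 1 of those called in both libraries, so the 2 lists overlap. The list's share was 0.396% against 0.471% and 0.362% against 0.486%. Deeper cells of 8700 to 12000 UMIs had shares of 0.380% and 0.347%, no higher than those of low-UMI cells. Over the alternatives the summed log2 ratio ranged from -0.37 to -0.02 with ETV6-RUNX1 and from -0.60 to -0.11 in the control. UBE2C, a ubiquitin-conjugating enzyme of the anaphase-promoting complex, was at 109 against 183 CPM (-0.74, -1.19 to -0.33) and at 90.4 against 195 CPM (-1.11, -1.95 to -0.38). BIRC5, a subunit of the chromosomal passenger complex, was at 121 against 142 CPM with ETV6-RUNX1 and at 60.2 against 138 CPM in the control, where the low-UMI value rests on 10 UMIs. TK1 and MCM7, a thymidine kinase and a replicative helicase subunit, were lower in both libraries, with log2 ratios of -0.71 and -0.82 with ETV6-RUNX1 and of -1.01 (-1.97 to -0.19) and -0.67 (-1.48 to 0.05) in the control. UBE2T, a ubiquitin-conjugating enzyme of DNA crosslink repair, was at -0.62 and -0.79.

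Phase calls on thinned cells gave more low-UMI cells to G1, the class left when neither score is above 0. Few UMIs lay behind a call: in low-UMI cells the S-phase list took means of 0.256% and 0.253% of 2000 UMIs. The list for G2 and mitosis took 0.396% and 0.362%, so calls of single cells are uncertain. The G1 share was 29.5% (23.6 to 35.9) of 224 low-UMI and 17.3% (15.7 to 19.0) of 2043 deeper cells with ETV6-RUNX1, and 34.9% (24.8 to 46.2) of 83 and 17.1% (15.4 to 19.0) of 1786 in the control. Calls of G2M were 43.8% against 58.3% and 36.1% against 54.3%. The S share was 26.8% against 24.3% and 28.9% against 28.6%, alike in both classes within their intervals. S-phase genes as a list differed by little, with summed log2 ratios of -0.01 (-0.10 to 0.08) and -0.11 (-0.25 to 0.03). When the 3 phases were weighted equally within each class, 8 of the 10 genes higher in both libraries and 5 of the 10 lower in both were still at 1.5-fold in both. Genes of G1 control and quiescence were a little higher, with 3 of 4 measured members above 0 in each library; CDK6, a G1 kinase, had log2 ratios of 0.32 (-0.04 to 0.66) and 0.46 (-0.10 to 0.96).

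Histone genes were mixed. Their calls are to be read against 5.27% lower and 4.23% higher among all measured genes in the control. Of 8 measured members, 4 were below 0 with ETV6-RUNX1 and 5 in the control; none was called with ETV6-RUNX1, whereas in the control HIST1H4C and the macroH2A gene H2AFY were called lower and HIST1H1C higher. Summed, the list had log2 ratios of -0.09 (-0.13 to -0.04), which turned to 0.07 against deeper cells of 8700 to 16000 UMIs, and -0.37 (-0.45 to -0.29). HIST1H1C, a linker histone gene, was at -0.33 (-0.81 to 0.12) and 0.73 (0.08 to 1.32), and the control value, on 25 UMIs, turned to -0.028 with another random draw. HIST1H4C, a replication-dependent histone H4 gene, was at 3527 against 4119 CPM with ETV6-RUNX1 (-0.22, -0.30 to -0.15) and at 2108 against 4172 CPM in the control (-0.98, -1.14 to -0.83). Between the libraries, the log2 ratio (ETV6-RUNX1 over control) was thus 0.74 (0.57 to 0.91) in low-UMI cells and -0.02 in deeper cells. Whether that difference exceeds the spread between cultures was not tested.

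Proteasome, glycolysis and growth-related genes formed a broad group of modest ratios. Their calls are to be read against the 2.16% and 5.27% of all measured genes called lower. Of 18 measured proteasome genes, 17 were below 0 with ETV6-RUNX1 and 14 in the control (94.4% and 77.8%, against 60.5% and 59.1% of all measured genes), with 1 and 6 called lower; the list took 0.370% against 0.471% and 0.389% against 0.496%. PSMB2, a core subunit, was at 134 against 217 CPM and at 151 against 239 CPM. All 9 measured glycolysis genes were below 0 in both libraries, with 3 and 1 called lower. LDHA, lactate dehydrogenase A, was at 335 against 530 CPM (-0.66, -0.91 to -0.42) and at 361 against 575 CPM (-0.67, -1.06 to -0.30). ENO1, an enolase, was at -0.67 (-0.87 to -0.47) in the ETV6-RUNX1 library, against -0.26 (-0.54 to 0.02) in the control. Of 26 measured genes of ribosome biogenesis and MYC response, 23 and 20 were below 0 (88.5% and 76.9%). PHB, a mitochondrial inner membrane scaffold, was at -0.67 (-0.98 to -0.37) and -0.83 (-1.37 to -0.33), and NME1, a nucleoside diphosphate kinase, at -0.58 (-0.80 to -0.36) and -0.52 (-0.86 to -0.19). Heat shock chaperones were below 0 for 14 and 13 of 15 measured genes; CCT7, a subunit of the cytosolic chaperonin, was at -0.70 (-1.11 to -0.33) and -0.68 (-1.34 to -0.10), and HSP90AA1 at -0.47 and -0.54.

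Nuclear genes of oxidative phosphorylation were slightly lower, below 0 for 51 and 46 of 60 measured genes (85.0% and 76.7%, against the 60.5% and 59.1% of all). Their summed log2 ratios were -0.14 (-0.17 to -0.11) and -0.12 (-0.16 to -0.07). Of these genes 0 and 1 were called lower, against 2.16% and 5.27% of all measured genes. Their mitochondrially encoded partners were at 0.05 (0.03 to 0.07) and -0.01 (-0.04 to 0.03). The rule capped the mitochondrial share at 10%, so these 2 ratios are partly set by the selection. Over the alternatives they ranged from -0.19 to 0.11 with ETV6-RUNX1 and from -0.72 to 0.26 in the control. Ribosomal proteins took 43.8% of UMIs against 44.0%, and 41.4% against 42.4%, and none of 77 measured genes was called. A single ribosomal protein gene could differ all the same: RPL31, of the large subunit, was at 3375 against 2700 CPM and at 3090 against 2514 CPM, log2 ratios of 0.32 (0.24 to 0.40) and 0.30 (0.17 to 0.43). TMSB4X, the actin-sequestering thymosin beta 4, was higher in both libraries at 8661 against 7018 CPM (0.30, 0.25 to 0.35) and 8807 against 6522 CPM (0.43, 0.36 to 0.51). ACTG1, also of the actin cytoskeleton list, was lower in both at -0.33 (-0.47 to -0.20) and -0.23 (-0.44 to -0.04). Of 19 measured genes of that list, 10 and 11 were below 0 (52.6% and 57.9%, against the 60.5% and 59.1% of all).

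Lists of stress and death programmes held few calls. Of all measured genes, 2.16% and 5.27% were called lower. Genes of ER folding and secretion were below 0 for 12 of 16 measured in each library, with summed log2 ratios of -0.15 (-0.22 to -0.080) and -0.15 (-0.26 to -0.044), below 0 in both libraries under each alternative run. One was called lower in each, P4HB (-0.59, -1.10 to -0.11), a disulfide isomerase, with ETV6-RUNX1 and SSR3 (-0.69, -1.65 to 0.14), a subunit of the translocon-associated complex, in the control. The immediate early genes FOS and JUN had log2 ratios of 0.01 and -0.40 with ETV6-RUNX1 and of -0.09 and 0.02 in the control, with intervals that include 0. In the ATF4 list 1 of 5 measured genes was called lower with ETV6-RUNX1 (PHGDH, the first enzyme of serine synthesis, -0.75, -1.32 to -0.22) and none in the control. Of p53 targets and of the BCL2 family list, 2 genes each were measured and none was called; the BCL2 family list had summed log2 ratios of -0.12 (-0.26 to 0.02) and -0.12 (-0.34 to 0.10). PMAIP1, a pro-apoptotic BCL2 relative induced by p53, was at 129 against 112 CPM and at 120 against 115 CPM.

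**Figure D3:**
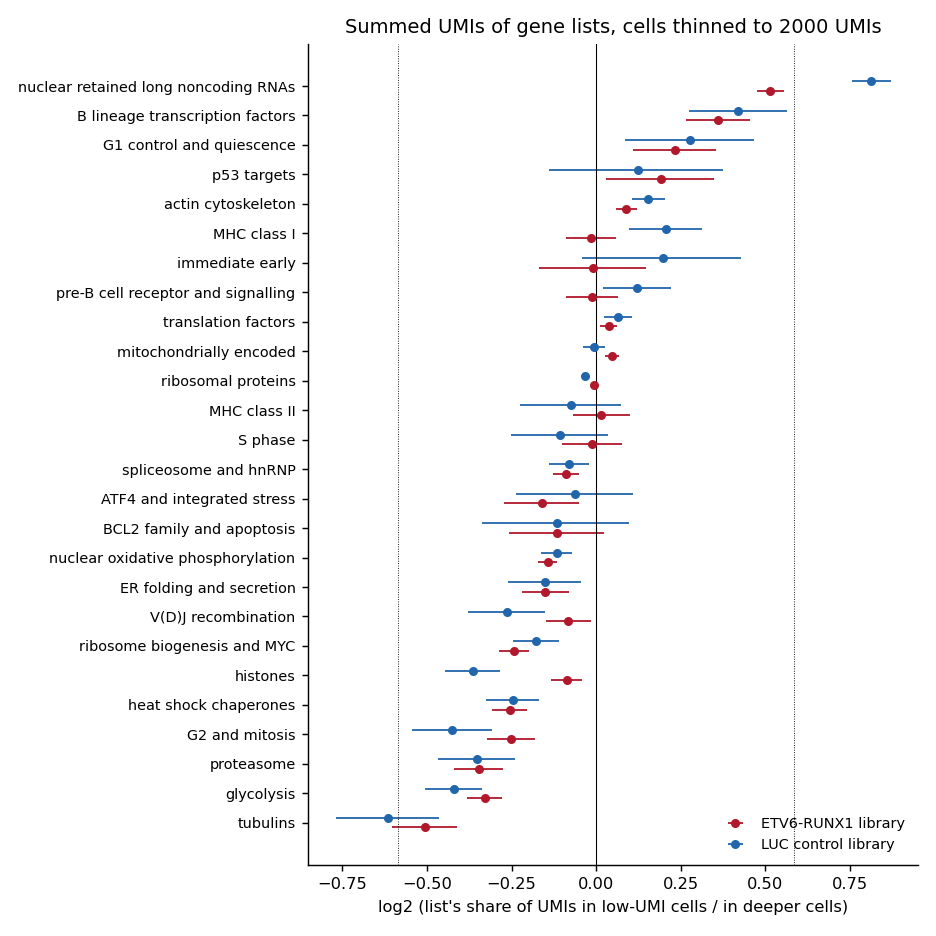
The log2 ratio of each gene list's summed UMIs in low-UMI over deeper cells (horizontal axis) is drawn for 26 lists, with ETV6-RUNX1 in red, LUC control in blue, exact 95% counting intervals as bars and 1.5-fold as dotted lines. Nuclear retained long noncoding RNAs lie farthest right, at 0.51 and 0.81, and tubulins farthest left, at -0.51 and -0.61. The former list is almost all MALAT1, which held 6172 of its 6261 low-UMI UMIs with ETV6-RUNX1 and 2633 of 2656 in the control.

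Shares also changed with depth on either side of the limit. With ETV6-RUNX1, MALAT1 took 1.46% in 87 cells of 4000 to 6500 UMIs, 1.32% in 123 cells of 6500 to 8700, 1.19% in 218 cells of 8700 to 12000, 1.09% in the next 347 and 0.860% in 68 cells of 36000 or more. In the control it went from 1.67% in 34 cells of 4000 to 6500 UMIs through 1.13% and 1.14% on either side of the limit to 0.832%. Tubulins went from 0.173% to 0.439% over the same bins in the ETV6-RUNX1 library, against 0.257% to 0.400% in the control, where the bin below the limit was the lowest at 0.181%. Cells of 8700 to 12000 UMIs had tubulins at 0.225% and 0.221%, near the 0.214% and 0.220% of all low-UMI cells. Ribosomal proteins were highest at 44.9% in cells of 8700 to 12000 UMIs with ETV6-RUNX1 and at 42.8% in cells of 12000 to 16000 in the control, and came to 41.8% and 41.3% in the deepest bin. The shallowest bin held 14 and 15 cells and is given in the plot only. When deeper cells were restricted to 8700 to 16000 UMIs, the calls with ETV6-RUNX1 came to 9 higher and 5 lower and in the control to 41 higher and 32 lower, and of the genes higher and lower in both, 2 of 10 and 0 of 10 were at 1.5-fold in both, with all 20 in the same direction.

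**Figure D4:**
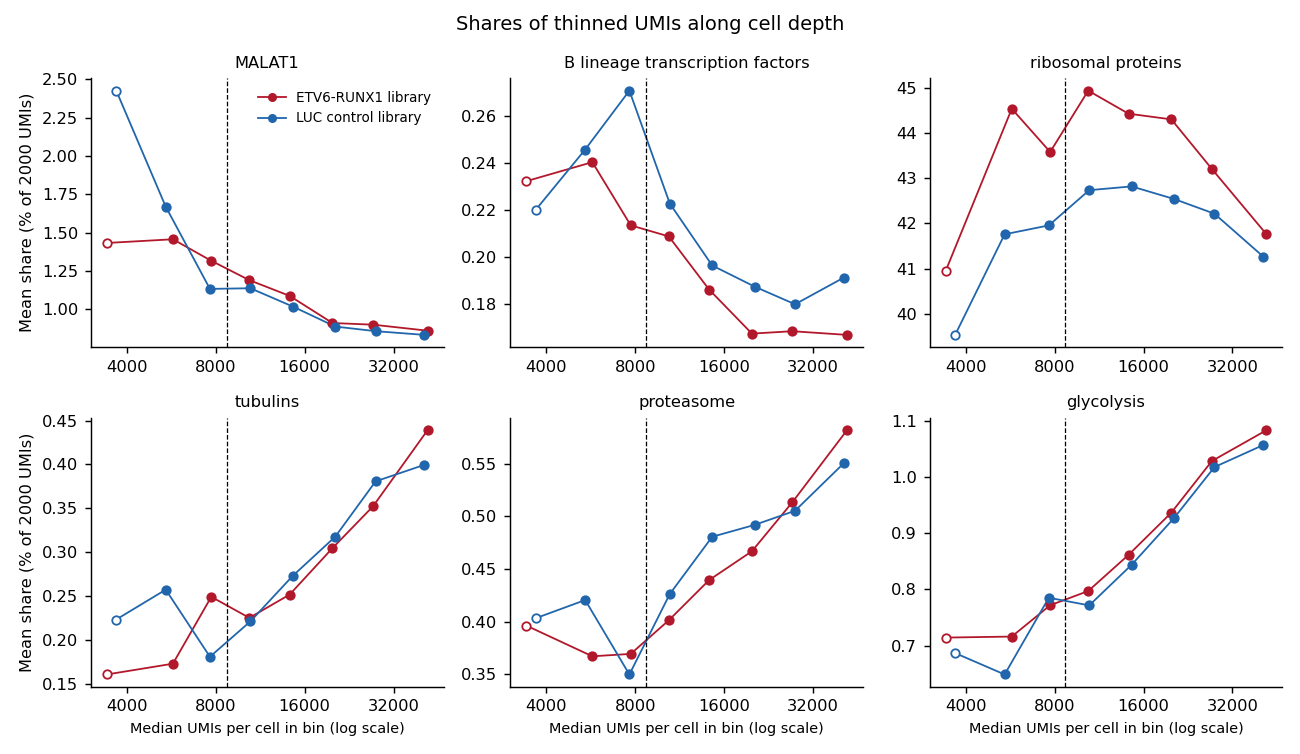
Mean percentage of the 2000 thinned UMIs taken by MALAT1 and 5 gene lists is plotted against the median UMIs of the cells in 8 bins of depth (log scale), with hollow points for bins under 20 cells and the dashed line at 8700 UMIs. From 4000 to 6500 UMIs to the deepest bin, MALAT1 goes from 1.46% to 0.860% and from 1.67% to 0.832%, and glycolysis from 0.716% to 1.08% and from 0.649% to 1.06%.

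Within the low-UMI cells, MALAT1 and ribosomal proteins varied with the mitochondrial share. With ETV6-RUNX1, MALAT1 went from 1.11% in 68 cells of 2 to 4% mitochondrial UMIs to 1.45% in 92 cells of 4 to 6% and 1.75% in 49 cells above 6%; ribosomal proteins went from 45.5% to 43.2% and 41.2%. In the control the same bins held 21, 20 and 25 cells, with MALAT1 at 1.26%, 2.15% and 1.73% and ribosomal proteins at 42.4%, 41.1% and 39.5%. Over single low-UMI cells (224 and 83, each set from 1 library), Spearman's rho with the mitochondrial share was weak, at 0.18 and 0.26 for MALAT1 and -0.34 and -0.29 for ribosomal proteins. In deeper cells, from 2 to 4% to above 6%, MALAT1 went from 0.920% to 1.08% and from 0.850% to 1.17%, and ribosomal proteins from 44.2% to 44.4% and from 42.5% to 42.4%. A higher mitochondrial share is often read as a sign of damaged cells; its part in the ratios above was not tested. Among cells with at most 5% mitochondrial UMIs, 4 of the 10 genes higher and 2 of the 10 lower in both libraries were at 1.5-fold in both, and 19 of 20 had the same direction.

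Control low-UMI cells of the lowest mitochondrial share had more tubulin UMIs than the others. In 17 thinned control cells with at most 2%, tubulins took 0.385%, genes of G2 and mitosis 0.524%, ribosome biogenesis genes 1.52% and MALAT1 1.11%, against 0.337%, 0.486%, 1.26% and 0.899% in all deeper control cells. The 10 deeper control cells with at most 2% mitochondrial UMIs were close to them, with tubulins at 0.385%, genes of G2 and mitosis at 0.475%, ribosome biogenesis genes at 1.505% and MALAT1 at 1.035%. The 15 ETV6-RUNX1 cells of this kind differed, with tubulins at 0.170% and ribosome biogenesis genes at 1.14%. Without cells of at most 2% mitochondrial UMIs, the control calls numbered 55 higher and 85 lower, and 9 of 10 genes higher and 10 of 10 lower in both libraries were at 1.5-fold in both. These bins hold fewer than 20 cells.

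**Figure D5:**
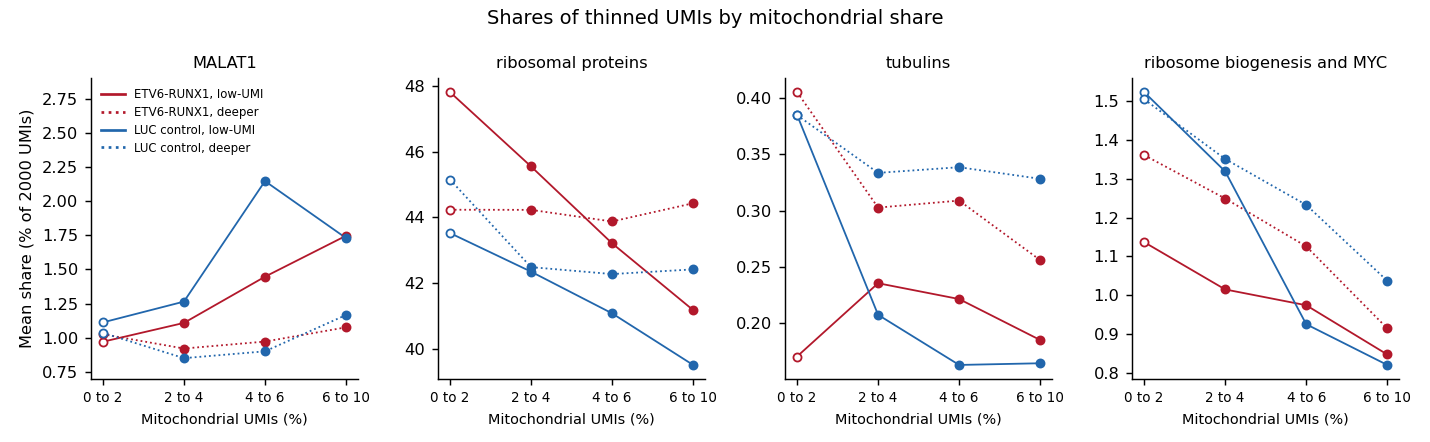
Mean percentage of the 2000 thinned UMIs in 4 bins of mitochondrial share is plotted for low-UMI (solid) and deeper cells (dotted) of each library, with hollow points for bins under 20 cells. MALAT1 is highest and ribosomal proteins lowest in low-UMI cells above 4%, and control low-UMI cells at 0 to 2% have tubulins at 0.385%.

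ETV6-RUNX1 was then compared with control among low-UMI cells alone. ETV6 itself had 9 UMIs with the fusion (20.1 CPM) and 0 in the control, where a count of 0 allows up to 18.1 CPM. The interval of the log2 ratio starts at -0.45 and has no upper end, so it includes no difference. In deeper cells the ETV6 log2 ratio was 0.81 (-0.02 to 1.68). RUNX1 had 11 and 7 UMIs (24.6 and 42.2 CPM, log2 ratio -0.78, -2.28 to 0.82). Of 1063 genes, 27 reached 1.5-fold higher with the fusion (2.54%) and 72 reached 1.5-fold lower (6.77%), and intervals excluded no difference for 15 and 48. In deeper cells, 1 was higher (0.0941%) and 2 were lower (0.188%). These counts rest on different depths, 448000 and 166000 UMIs in low-UMI cells against 4086000 and 3572000 in deeper ones, and with all UMIs summed the low-UMI cells gave 6 higher and 27 lower.

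IGLL1 was lower with ETV6-RUNX1 in low-UMI cells as in deeper ones. It was at 1105 CPM with the fusion and 2090 CPM in the control, a log2 ratio of -0.92 (-1.12 to -0.72), and in deeper cells the log2 ratio was -0.74. Over the 12 alternatives that recompute it, it ranged from -1.09 to -0.77. VPREB1 was at 665 and 970 CPM, -0.54 (-0.83 to -0.26) in low-UMI and -0.51 in deeper cells. LAT2, an adaptor of B-cell receptor signalling, had 5 and 11 UMIs (11.2 and 66.3 CPM, -2.57, -4.45 to -0.93), against -1.73 in deeper cells. GNG11, a G-protein gamma subunit, had 30 and 3 UMIs (67.0 and 18.1 CPM, 1.89, 0.20 to 4.25), against 0.62. The lists these genes come from were drawn up from the same libraries, so their direction here is no independent evidence.

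LAT2 and GNG11 lie under the floor of 100 CPM. Among the 1063 measured genes, the 5 highest and 5 lowest ratios between constructs rest on few control UMIs. H1FX, a linker histone variant, had 85 and 14 UMIs and a log2 ratio of 1.17 (0.34 to 2.10), UXT, a prefoldin-like cofactor, 146 and 25 UMIs and 1.11 (0.49 to 1.79), and NONO, a paraspeckle protein, 68 and 12 UMIs and 1.07 (0.17 to 2.09). BIRC5 had 54 and 10 UMIs and 1.00 (0.01 to 2.14), and ZNF428, a zinc finger gene, 86 and 16 UMIs and 0.99 (0.21 to 1.86), which turned to -0.094 with another random draw. On the lower side, SNORA76, a small nucleolar RNA, had 32 and 28 UMIs and -1.24 (-2.02 to -0.45), SEP15, a selenoprotein of the endoplasmic reticulum, had 38 and 31 UMIs and -1.14 (-1.86 to -0.41), DNAJC2, a ribosome-associated chaperone, -1.10 (-1.87 to -0.31), CIB1, a calcium-binding protein, -1.09 (-1.87 to -0.29), and MRPS23, a mitochondrial ribosomal protein, -1.05 (-1.82 to -0.25). In deeper cells these 10 genes ranged from -0.18 for SEP15 to 0.47 for SNORA76. With unthinned sums the ratios came closer to 0 in each of H1FX (0.80), UXT (0.38), NONO (0.18), BIRC5 (0.55), SEP15 (-0.63), DNAJC2 (-0.70), CIB1 (-0.50), MRPS23 (-0.79) and SNORA76 (-0.79).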

How the data were processed

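Droplet libraries of 2 Nalm-6 cultures were analysed, 1 per construct. The deposited matrices hold raw UMI counts, with no normalization, for 32738 genes, which the submitters' processing notes credit to Cell Ranger 3.0.2 and build hg19; the sources used here do not say how reads were divided where genes overlap or are nearly identical. The cells and the gene lists were chosen with earlier results of these data known.

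Each kept cell was thinned to 2000 UMIs without replacement (numpy 2.4.6), UMIs were summed by class and library, and ratios of CPM were given with exact 95% Poisson intervals (scipy 1.17.1). UMIs were taken as independent. Measured genes had a mean of at least 100 CPM over the 4 sums. Phases were called with scanpy 1.11.5 on thinned cells, with exact (Clopper-Pearson) intervals for shares of cells. Doublets were left in, and no caller was run. The thinning and the ratio were tested on simulated data.

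Named genes were up to 12 per direction that reached 1.5-fold in both libraries, up to 3 measured members per list by mean absolute log2 ratio, IGLL1, VPREB1, CD79A, CD79B, ETV6, RUNX1 and MALAT1, and up to 5 per direction between constructs. PDGFRA was added after its values were seen. There were 29 gene lists and 7 marker lists; 13 of 893 listed symbols matched no gene. GENCODE release 29, of another build, gave gene spans only.

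Alternatives were the thinned depth, no thinning, another random draw, the CPM floor, the fold, each limit on cells, the depth of the comparison cells, totals without ribosomal protein and mitochondrial genes, and equal weight for phases; 2 more (a lower mitochondrial limit and leaving out barcodes found in both libraries) were added after the data were seen.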

Additional observations from a re-analysis of the deposited data

Results flagged for a closer look

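SNORA76, a small nucleolar RNA gene, was past 1.5-fold in opposite directions in the 2 libraries. Its log2 ratio of low-UMI over deeper cells was -0.66 (-1.23 to -0.14) with ETV6-RUNX1, at 71.4 against 113 CPM, and 1.05 (0.43 to 1.61) in the control, at 169 against 81.7 CPM. The low-UMI values rest on 32 and 28 UMIs, and the difference between the libraries was not tested. Small nucleolar RNA genes lie within other genes, and the sources used here do not say how reads were divided between them.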

How the results depend on the processing

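Counts of genes at 1.5-fold moved with the number of UMIs behind them. Of the genes called in both libraries, all 20 kept their direction in both in 13 of 14 alternatives and 19 did in the other. These genes were picked for that direction, and the alternatives reuse the same cells or part of them, so a kept direction is no independent check. Of 29 gene lists, 14 had the same sign of the summed ratio in both libraries under every alternative run.

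In what follows, counts are in the order higher and lower with ETV6-RUNX1, higher and lower in the control (low-UMI over deeper cells), then higher and lower for ETV6-RUNX1 over control among low-UMI cells; the main values were 18, 23, 45, 56, 27 and 72. A floor of 50 CPM gave 74, 77, 196, 177, 125 and 222, and one of 200 CPM gave 4, 7, 14, 15, 5 and 19. At 2-fold the counts were 3, 0, 10, 5, 4 and 5. Without ribosomal protein and mitochondrial genes in the totals, which raises every other CPM and so the number of genes measured, they were 68, 75, 161, 178, 147 and 154. Without thinning and with cells weighted equally they were 11, 7, 26, 19, 9 and 25, and with UMIs summed 12, 13, 26, 21, 6 and 27. Thinning to 4000 UMIs moved 4 counts, to 9 and 15 with ETV6-RUNX1 and to 15 and 42 between constructs.

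With low-UMI cells under 6500 UMIs the counts that moved were 33, 62 and 69 (higher in the control) and 73 and 130 between constructs, and the shares of low-UMI cells were 4.46% and 2.67%. Shares with the scaled limit were 8.29% and 5.67%, and with at least 1500 genes 8.14% and 3.20%, where 42 genes were higher between constructs. With at most 5% mitochondrial UMIs the control share was 3.44%, 39 genes were lower with ETV6-RUNX1, and 72 were higher and 135 lower between constructs. Cells above 2% mitochondrial UMIs gave a control share of 3.58%, 85 genes lower in the control and 51 higher between constructs. Deeper cells of 8700 to 16000 UMIs gave 9 and 5 with ETV6-RUNX1 and 32 lower in the control. The cause of these moves was not tested except where the construction of the alternative gives it. Leaving out barcodes found in both libraries moved no count by over 1.5 times.

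Single genes turned direction as follows. ZNF428 in the control went to 0.13 when thinned to 4000 UMIs, 0.065 and 0.093 without thinning (cells weighted equally and UMIs summed) and 0.34 with another draw, and between constructs to -0.094 with that draw. NONO in the control went to 0.0028 when thinned to 4000 UMIs and 0.014 with another draw, HIST1H1C in the control to -0.028 with another draw, and MME in the control to -0.16 at the mitochondrial limit of 5%. No paired analysis was possible because each construct has 1 library.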
